A study of Mus musculus with 6 samples.

Results

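Hemoglobin and erythroid genes were followed in the gastrocnemius muscle of young and aged mice as a measure of the red cell RNA carried by each muscle sample. The 4 genes, Hba-a1, Hba-a2, Alas2 and Slc4a1, were found through the RefSeq transcript that each non-control probe of the array is named for. Each of them had 1 probe, so that they account for 4 of the 55681 probes on the array and for 4 of the 20901 genes that could be tested. All 4 probes were well above background on all 6 arrays and none was saturated.

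Total RNA was measured on single-colour Agilent arrays, 1 array per mouse. The young group held 3 male C57BL/6J mice of 13 weeks, and the aged group 3 male mice of the same strain at 26 months. The labels name no engineered allele and no treatment for either group, and do not say which mice shared a litter or cage. Values are given on the log2 scale relative to the 75th percentile of the array, so that 0 is the signal of the probe at that percentile.

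Hemoglobin is assembled from pairs of alpha and beta globin chains, each of which holds a heme. Red cells of adult mice have no nucleus, but the youngest of them, the reticulocytes, still carry globin messenger RNA into the circulation. Muscle fibres use myoglobin as their own oxygen-binding protein, and a muscle taken with its capillaries therefore holds blood RNA beside its own. Hba-a1 and Hba-a2 are neighbouring copies of the adult alpha globin gene, Alas2 codes for the first enzyme of heme synthesis in erythroid cells, and Slc4a1 codes for band 3, the anion exchanger of the red cell membrane. In these bulk samples, fewer red cells and less RNA per red cell cannot be told apart.

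The promoters of the members are shown as background, and a link between them and the array values was not tested. RefSeq (GRCm38.p6) gave a promoter for Hba-a1, Hba-a2 and Alas2. Each line holds the 250 bases before the gene's start, 5′ to 3′ on the gene's strand, and Hbb-bt, an adult beta globin gene, is set beside them. Capitals mark GATAA (the core bound by GATA factors), CACCC (the box bound by the Klf1 family), CCAAT and TATAA, on either strand. The windows are chr11:32283422-32283671 for Hba-a1 and chrX:150547167-150547416 for Alas2, both on the plus strand, and chr7:103813924-103814173 on the minus strand for Hbb-bt.
Hba-a1: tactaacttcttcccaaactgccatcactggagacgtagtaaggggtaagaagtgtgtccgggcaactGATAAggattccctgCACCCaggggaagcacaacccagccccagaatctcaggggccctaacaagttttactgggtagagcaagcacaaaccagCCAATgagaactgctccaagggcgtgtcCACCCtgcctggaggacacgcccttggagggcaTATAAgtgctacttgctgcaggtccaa
Alas2: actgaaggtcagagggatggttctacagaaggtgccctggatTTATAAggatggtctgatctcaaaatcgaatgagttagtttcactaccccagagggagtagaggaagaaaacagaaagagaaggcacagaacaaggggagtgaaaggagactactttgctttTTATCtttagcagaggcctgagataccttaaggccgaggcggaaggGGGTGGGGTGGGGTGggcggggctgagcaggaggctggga
Hbb-bt: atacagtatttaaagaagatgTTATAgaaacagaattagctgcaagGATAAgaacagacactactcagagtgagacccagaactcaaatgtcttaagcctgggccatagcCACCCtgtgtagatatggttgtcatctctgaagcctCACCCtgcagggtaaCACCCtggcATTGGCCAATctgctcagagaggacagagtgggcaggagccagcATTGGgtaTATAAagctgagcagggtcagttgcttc
The window of Hba-a2 (chr11:32296242-32296491, plus strand) is not printed, since 247 of the 247 bases that it shares with that of Hba-a1 were identical (100%), with a shift of 3 bases. In Hba-a1, TATAA lay 27 to 23 bases and CCAAT 88 to 84 bases before the start, CACCC lay 60 to 56 and 167 to 163 bases before it, and GATAA 182 to 178 bases before it. Alas2 held GATAA on the opposite strand 86 to 82 bases before the start and 3 matches to CACCC on that strand, the nearest 30 to 26 bases before the start. Its only TATAA match on the same strand, which overlaps one on the opposite strand, lay 207 to 203 bases before the start, and it held no CCAAT. All 4 windows held both GATAA and CACCC. Over all 32851 promoters in windows of the same length, 22.6% held GATAA, 52% CACCC, 33.8% CCAAT and 22.8% TATAA. Between the windows of Hba-a1 and Alas2, 30.5% of bases were identical at the best shift, and between those of Hba-a1 and Hbb-bt 32.4%. These matches are a description of the letters in the windows.

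Both alpha globin genes were lower on every aged array than on every young array. The signal of Hba-a1 was 7.61, 7.75 and 7.15 in young mice 1, 2 and 3, and 6.74, 6.52 and 5.66 in aged mice 1, 2 and 3. On the linear scale this was 196, 215 and 142 times the 75th percentile in the young mice, and 107, 91.8 and 50.6 times in the aged. Young mouse 3 was the lowest of the young and aged mouse 3 the lowest of the aged, and the groups did not overlap. The means were 7.50 ± 0.31 in the young and 6.31 ± 0.57 in the aged (SD, n = 3 each). The log2 fold change was -1.20 with a standard error of 0.32 (95% confidence interval -1.96 to -0.44), or 0.436 times the young level, and it did not pass the threshold of 0.05 after adjustment over all genes (limma, adjusted p = 0.196). A two-sided exact permutation test on this single gene gave p = 0.1, which is the smallest value that 3 arrays against 3 can give.

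Hba-a2 was 8.97, 9.22 and 8.78 in the young mice and 8.25, 8.29 and 7.71 in the aged mice. Again young mouse 3 and aged mouse 3 were the lowest of their groups, and every aged value lay below every young one. The means were 8.99 ± 0.22 and 8.08 ± 0.33 (SD, n = 3 each), a log2 fold change of -0.91 with a standard error of 0.22 (95% confidence interval -1.43 to -0.38). Hba-a2 was thus at 0.534 times the young level, with a limma adjusted p of 0.174 and an exact permutation p of 0.1. Since Hba-a1 and Hba-a2 are near-identical copies, transcripts of either may bind both probes, and their values are not independent of each other.

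Alas2, which feeds heme to the globin chains, had the largest difference of the 4 genes but overlapped between the groups. Its signal was 1.78, 2.27 and 0.89 in the young mice and 0.96, 0.39 and -0.18 in the aged mice. Young mouse 3 lay just below aged mouse 1, and the other young mice lay above all aged mice. The mean was 1.65 ± 0.70 in the young and 0.39 ± 0.57 in the aged (SD, n = 3 each). The log2 fold change of -1.26 (standard error 0.42, 95% confidence interval -2.26 to -0.26) is 0.417 times the young level, with a limma adjusted p of 0.271 and an exact permutation p of 0.2. Leaving out 1 mouse at a time gave values from -1.64 without young mouse 3 (limma, adjusted p = 0.254) to -0.95 without young mouse 2 (adjusted p = 0.551), with -0.98 without aged mouse 3 (adjusted p = 0.610).

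Slc4a1 did not share the pattern of the other members. Its signal was -1.99, -1.93 and -2.50 in the young mice and -3.47, -2.23 and -2.18 in the aged mice, on a probe that was dim but well above background on each array. Aged mice 2 and 3 lay within the range of the young mice, and aged mouse 1 stood below all the others. The means were -2.14 ± 0.31 and -2.63 ± 0.73 (SD, n = 3 each), with a log2 fold change of -0.49 (standard error 0.38, 95% confidence interval -1.38 to 0.41, limma adjusted p = 0.579). Without aged mouse 1 the log2 fold change was -0.06 (limma, adjusted p = 0.909), so that the difference rested on this array.

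**Figure D1:**
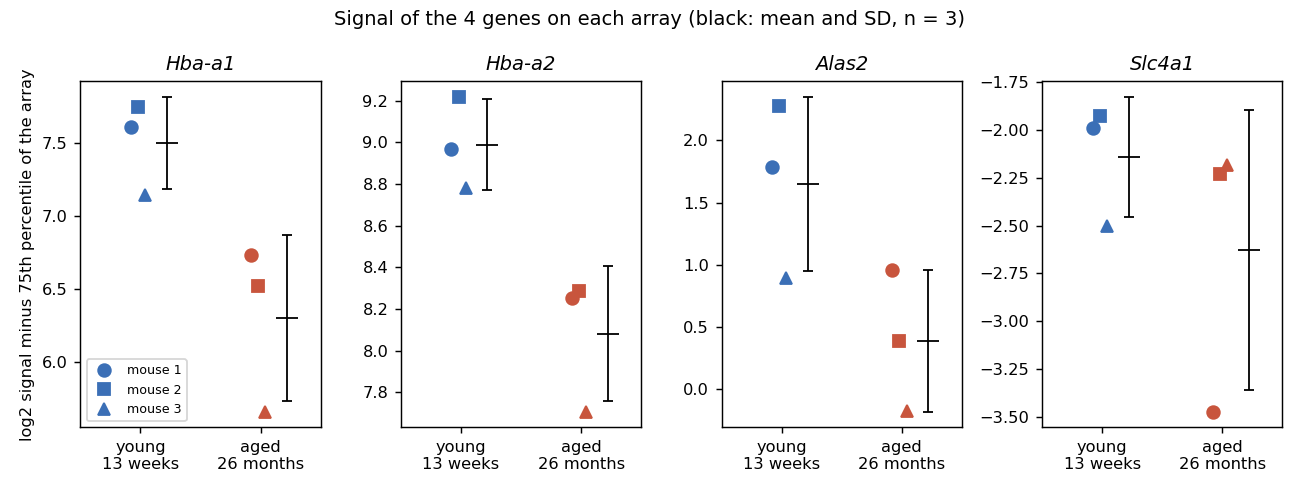
Log2 signal of Hba-a1, Hba-a2, Alas2 and Slc4a1 relative to the 75th percentile of each array (vertical axes, which differ in range and do not start at 0) in young and aged mice; symbols are single mice, and black bars show the mean and SD of n = 3. The groups are apart for Hba-a1 and Hba-a2, touch for Alas2 (0.89 in young mouse 3, 0.96 in aged mouse 1), and overlap for Slc4a1, where aged mouse 1 is at -3.47.

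Across the 20901 genes tested, 53 passed the threshold in either direction (0.254%), and none of the 4 members did. Of the members, 3 of 4 had an unadjusted p under 0.05 with the lower mean in the aged, against 8.38% of all genes. Every aged array lay below every young array in 2 of 4, against 13.9% of all genes, and the aged mean was lower in 4 of 4, against 56.9%. The 2 were the alpha globin copies, which are also among the 3 and whose values are not independent of each other. Since the members were chosen with earlier results of these data known, these counts are a description. The median log2 fold change was -1.05 over the members and -0.06 over all genes. Ordered from the lowest log2 fold change, Alas2 stood at place 255, Hba-a1 at 310, Hba-a2 at 609 and Slc4a1 at 2416. Many other genes thus had a lower value than each member.

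**Figure D2:**
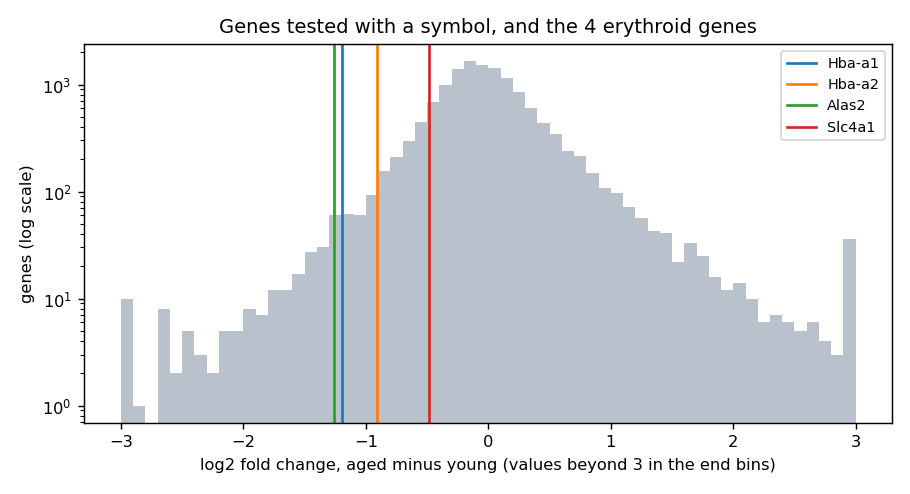
Histogram of log2 fold changes (aged minus young, horizontal axis) of the tested genes that have a symbol (number of genes on a log axis), with coloured lines at the 4 erythroid genes. Hba-a1, Hba-a2 and Alas2 lie in the lower tail at -1.20, -0.91 and -1.26, and Slc4a1 lies nearer the bulk at -0.49.

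The arrays were on 1 slide, and their place on it was not balanced between the groups, since the first row held the young mice and aged mouse 1 and the second row aged mice 2 and 3. Within the first row, where only aged mouse 1 can be set against the 3 young mice, the log2 fold change was -0.77 for Hba-a1, -0.73 for Hba-a2, -0.69 for Alas2 and -1.33 for Slc4a1 (limma adjusted p from 0.194 to 0.626). The signal at the 75th percentile was 210 in young mouse 3 and 259 to 311 on the other arrays, and 48.7% to 53.8% of probes were well above background. The part of slide row and array brightness in the erythroid values was not tested.

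The beta globin genes, whose chains pair with those of Hba-a1 and Hba-a2, resembled the alpha globins. Hbb-bt was 6.56, 6.72 and 5.66 in the young mice and 5.48, 5.56 and 4.81 in the aged mice, with all aged values below the young ones (log2 fold change -1.03, standard error 0.34, limma adjusted p = 0.266). Hbb-b2 was 3.16, 3.12 and 2.31 in the young and 1.81, 2.12 and 1.04 in the aged, again without overlap (-1.20, standard error 0.35, limma adjusted p = 0.227). Hbb-b1 overlapped between the groups, with 2.32, 2.53 and 1.45 in the young and 1.53, 1.28 and 0.26 in the aged (-1.08, standard error 0.42, limma adjusted p = 0.317). Every aged array lay below every young array in 2 of these 3 genes, against 13.9% of all genes. The beta globin genes are also close copies of each other, so that transcripts of any of them may bind the other probes. Their values are therefore not independent of each other, and which copy each probe read was not tested. Hbb-bs had no probe that was matched. The embryonic and minor globins Hba-x, Hbb-bh1, Hbb-bh2, Hbb-y, Hbq1a and Hbq1b were above background on at most 1 of the 6 arrays and were not tested.

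Seen array by array, 7 probes were set side by side, those of the adult globins, Alas2 and Slc4a1. All but Slc4a1 ordered the mice of a group in much the same way, and Slc4a1 did so only among the young. Young mouse 3 was the lowest of the young for 7 of 7 probes, at -0.21 for Hba-a2 to -0.76 for Alas2 relative to the mean of the young. Aged mouse 3 was the lowest of the aged for 6 of 7, at -1.84 for Hba-a1, -1.28 for Hba-a2 and -1.83 for Alas2 relative to the young mean, and aged mouse 1 was the lowest for Slc4a1. Over the 6 arrays, Pearson's r was 0.98 between Hba-a1 and Hba-a2, 0.96 between Hba-a1 and Alas2 and 0.93 between Hba-a2 and Alas2, and within the groups, after each group mean was subtracted, it was 0.95, 0.89 and 0.86. With Slc4a1, r was 0.23 to 0.35 over the 6 arrays and -0.36 to -0.18 within the groups. These values describe 6 arrays, and all genes of an array share its labelling and scaling. The alpha globin probes read near-identical copies and the beta globin probes close copies, so the 7 probes are not independent of each other. How often these mice were lowest over all genes was not counted.

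**Figure D3:**
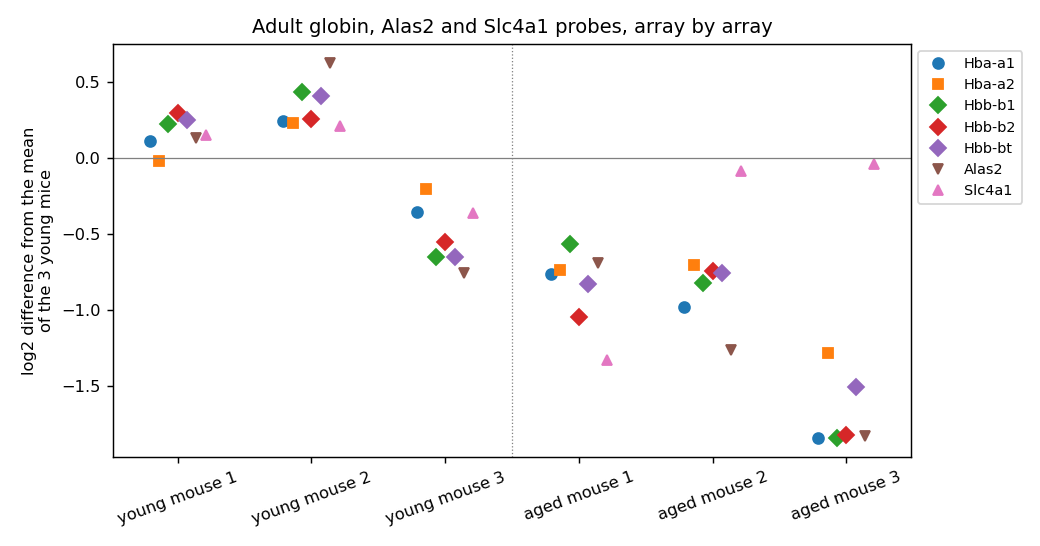
Log2 difference of each array from the mean of the 3 young mice (vertical axis) for 7 probes, with the arrays on the horizontal axis and 1 symbol per gene, set slightly apart. Young mouse 3 lies below the other young mice for every probe, aged mouse 3 is lowest for all but Slc4a1, and Slc4a1 is near 0 in aged mice 2 and 3 (-0.09 and -0.04).

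Heme synthesis starts with Alas2 in erythroid cells and with Alas1 in other cells, and the later steps use enzymes that all cells share. Of 10 listed genes of the pathway, Alas2 included, all 10 were tested, and 7 were lower and 3 higher in mean in the aged. The aged mean was lower in 56.9% of all genes. An unadjusted p under 0.05 was reached by 4, all lower, against 8.38% of all genes, and none passed the threshold. The median log2 fold change of the list was -0.27, and -0.22 over the 9 genes without Alas2. Alad, the second enzyme, was 3.82, 2.76 and 3.85 in the young and 2.05, 2.38 and 2.20 in the aged, which did not overlap (-1.27, limma adjusted p = 0.178), but its second probe gave -0.27. Urod (-0.48), Cpox (-0.44) and Alas1 (-0.32) were without overlap on a smaller scale, with limma adjusted p of 0.271, 0.271 and 0.401. With Alad these were 4 of the 10 genes, against 13.9% of all genes. Fech, which inserts iron to complete heme, was at 0.11 and the mitochondrial carrier Slc25a38 at 0.01, both with overlapping groups. Young mouse 3, the lowest young mouse for Alas2, was the highest young mouse for Alad and Urod.

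Red cell membrane genes did not move in 1 direction. Of 17 listed genes, Slc4a1 included, 11 were tested, of which 4 were lower and 7 higher in mean in the aged, with a median log2 fold change of 0.06 that turned to -0.0088 with normexp correction, -0.09 under median scaling and -0.17 with the slide row as a block. Rhag, Rhd, Kel and Epb42, which are markers of red cells and their precursors, were above background on 0 of the 6 arrays and had no test. The water channel Aqp1, which endothelium also makes, was 6.87, 6.90 and 6.66 in the young and 5.88, 6.33 and 6.18 in the aged (-0.68, limma adjusted p = 0.196). Icam4, a ligand of integrins on red cells, was higher on all aged arrays (0.80, limma adjusted p = 0.324), and the aged exceeded the young without overlap in 7.92% of all genes. The cytoskeletal genes Ank1 (0.43), Sptb (0.06) and Epb41 (-0.37), which muscle also expresses, had limma adjusted p of 0.532, 0.920 and 0.333. The other probes of Epb41 gave smaller differences of -0.12 and -0.26.

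Among 12 tested genes of red cell metabolism and maturation, of 15 listed, 7 were lower and 5 higher in mean. The aged mean was lower in 56.9% of all genes, and the median log2 fold change of the list was -0.14. An unadjusted p under 0.05 with the lower mean in the aged was found for 3, against 8.38% of all genes. Cpox is 1 of these and is also in the heme synthesis list. Tfrc, the transferrin receptor that brings iron into cells, was 2.97, 3.22 and 3.59 in the young and 1.22, 2.31 and 2.19 in the aged (-1.36, standard error 0.33, limma adjusted p = 0.171). Its groups did not overlap and its 3 probes gave -1.27 to -1.44, yet young mouse 3, the lowest young mouse for the members, was the highest for Tfrc. Of the 12 genes, 3 were lower without overlap, Tfrc included, against 13.9% of all genes. Carbonic anhydrases Car1 (0.15) and Car2 (-0.10), the peroxiredoxin Prdx2 (0.05) and the iron carrier Slc25a37 (0.04) had overlapping groups. The second probe of Slc25a37 gave -0.38. Trim10 and Trim58 were above background on at most 1 array.

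Several transcription factors of red cell precursors were above background on too few arrays to be tested. Gata1, Gfi1b and Bcl11a were above background on 0 arrays, Nfe2 on 1 and Klf1 on 2. Of 10 listed genes 5 were tested, with a median log2 fold change of -0.39 that turned to 0.14 with no filter on dim probes. Zfpm1 (-0.59), Ldb1 (-0.51), Lmo2 (-0.39) and Tal1 (-0.36), which act with GATA factors in blood and endothelium, were lower on all aged arrays, with limma adjusted p from 0.230 to 0.383. These were 4 of the 5 tested genes, against 13.9% of all genes. The other probes of Zfpm1 gave smaller differences of -0.26 and -0.49. Epor, the erythropoietin receptor, was at 0.34 with overlapping groups (limma adjusted p = 0.635).

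**Figure D4:**
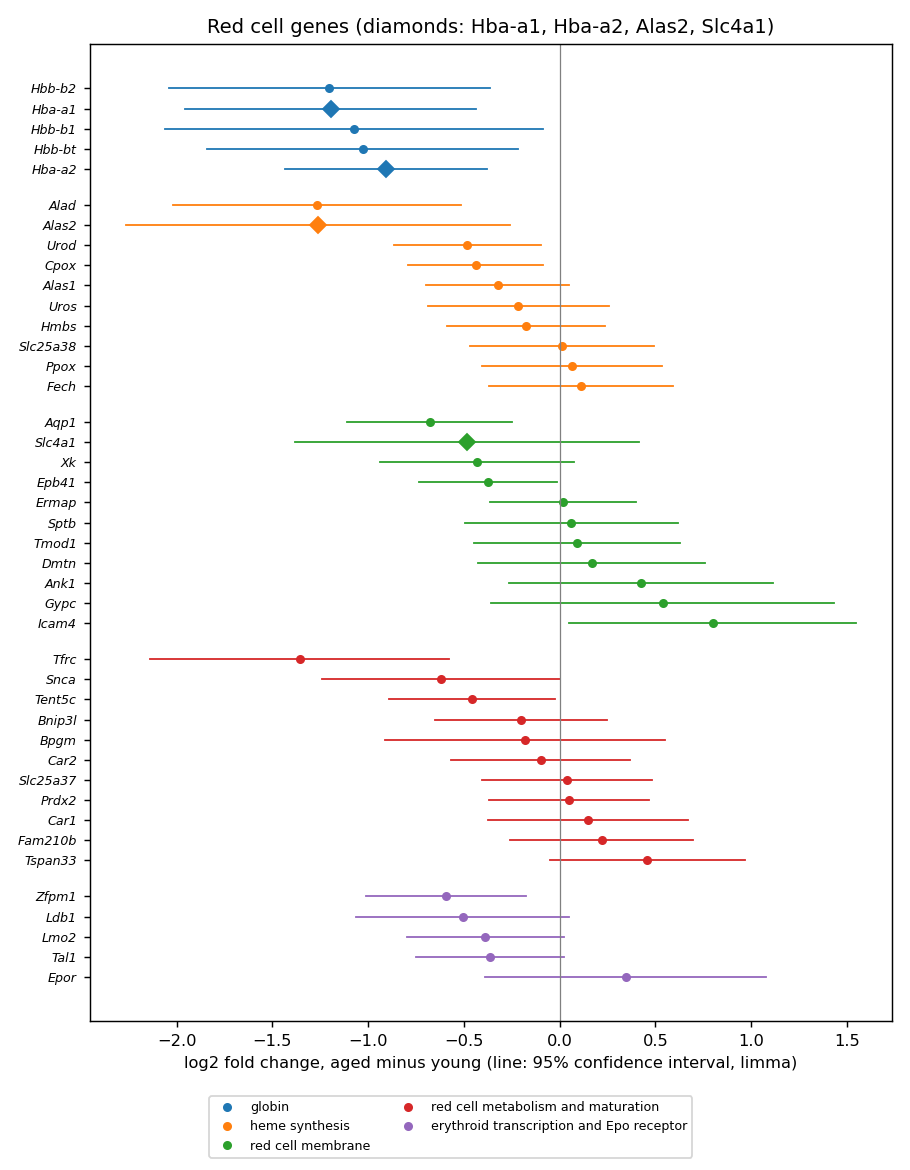
Log2 fold change (aged minus young, horizontal axis) of the tested genes of 5 red cell lists, with 95% confidence intervals from limma and diamonds for the 4 members; each gene is drawn once. The 5 globins lie between -1.20 and -0.91, while the membrane list spreads from -0.68 for Aqp1 to 0.80 for Icam4.

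Markers of other cells of blood and muscle were read on the same arrays. The blood platelet list had 7 of 11 genes tested, 3 lower and 4 higher in mean, with a median log2 fold change of 0.15 that turned to -0.00057 under median scaling and -0.43 with the slide row as a block. Its summed level was 8.05 to 11.5 times the 75th percentile in the young and 10.1 to 15.8 in the aged, and Pf4, its brightest gene, was at 0.51 (limma adjusted p = 0.393). Of the lymphocyte list 4 of 12 were tested, all lower in mean, against 56.9% of all genes. Their median was -0.18, with summed levels of 2.84 to 3.30 in the young and 2.48 to 3.19 in the aged. In the neutrophil list 6 of 12 were tested, and S100a8 and S100a9 rose in the aged (4.80 and 4.70, limma adjusted p = 0.00602 for both), while Camp was at -0.40 and Elane at -0.31. Retnlg was well above background on no young array, and with it at its bound the median of the list was 1.55 in place of 1.75. The median was 0.73 with normexp correction, 0.32 with no filter on dim probes, and 0.0515 with probes above background on all arrays or with every probe on its own. The summed level was 157 to 161 in the young and 169 to 199 in the aged, most of it from Csf3r, which was at 0.05 with overlapping groups (limma adjusted p = 0.895).

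Endothelium, which lines the vessels that hold the red cells, was lower in mean in the aged for 9 of its 12 genes, against 56.9% of all genes. The median log2 fold change was -0.39, and the summed level was 150 to 178 times the 75th percentile in the young and 96.1 to 130 in the aged, without overlap. Robo4 (-0.87), Cdh5 (-0.79), Flt1 (-0.60) and Esam (-0.52) were lower on all aged arrays, with limma adjusted p from 0.215 to 0.322. These were 4 of the 12 genes, against 13.9% of all genes. Egfl7 (-0.43) and Vwf (-0.315), which are among the brightest of the list, had overlapping groups, as had Cldn5 (-0.09) and Emcn (0.06). Pecam1 (0.52) and Tek (0.46) were far lower in young mouse 3 than in the other young mice. The skeletal muscle fibre list, the marker set of the labelled tissue, had 11 of 12 genes tested, a median of -0.17, and summed levels of 7045 to 8533 in the young and 5904 to 7593 in the aged. Myoglobin (Mb), the globin of the fibres themselves, was at -0.20 with overlapping groups (limma adjusted p = 0.617). The part of vessel content in the erythroid values was not tested.

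**Figure D5:**
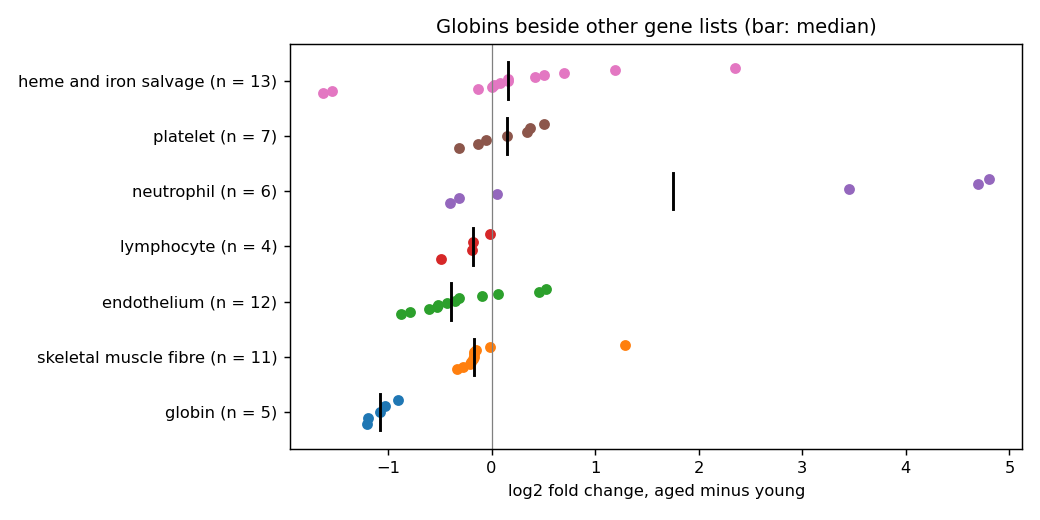
Log2 fold change (aged minus young, horizontal axis) of the tested genes of the globin list and of 6 other gene lists (rows, with the number of genes), with a black bar at each median. The globins are at -1.20 to -0.91, the endothelial median is -0.39, and S100a8 and S100a9 stand at 4.80 and 4.70 in the neutrophil row.

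The genes whose pattern over the 6 arrays was most like the mean of the 4 members were sought among 6900 genes with a symbol and enough spread. The 10 with the highest Pearson's r were Col9a2 (0.995), Hbb-bt (0.982), Prom1 (0.981), Rhob (0.975), Hbb-b2 (0.974), Rnf144b (0.972), Hr (0.972), Zfp189 (0.971), Sox17 (0.970) and Itga10 (0.970). All 10 were lower on every aged array, which the choice of genes by this profile favours, and none passed the threshold. Hr, a repressor that acts with nuclear receptors, had the largest difference of them at -1.41 (limma adjusted p = 0.127), and Sox17, a factor of vascular endothelium, was at -0.83 (limma adjusted p = 0.149). With 6 arrays and so many candidates, values of r near 1 are a description of these arrays.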

How the data were processed

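RNA of 6 gastrocnemius muscles was hybridised to single-colour (Cy3) Agilent arrays. The deposited intensities are the processed signal of Feature Extraction, from which the software had subtracted the background. The version is 9.5 in the submitters' processing notes and 11.0.1.1 in the file headers. The series matrix repeats these values on the linear scale, so that it gave identical results and no separate check.

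Flagged spots were left out (161 to 212 per array), log2 signals were averaged over the spots of a probe, and each array was scaled by subtracting its 75th percentile over probes. Accessions were matched to RefSeq symbols (GRCm38.p6, 28331 of 55681 probes). A probe was kept when well above background on at least 3 of 6 arrays, and a gene was read from its brightest kept, unsaturated probe (20901 genes). The age groups entered 1 fit in limma 3.58.1 (lmFit and eBayes, R 4.3.3), since the study gives no array test, with p-values adjusted by Benjamini-Hochberg over all genes at 0.05. The fit was tested on simulated data. The number of arrays limits the precision. Each limma p-value sets a difference against the spread between these 3 mice per group, moderated toward the spread of all genes.

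The members and the gene lists were chosen with earlier results of these data known. All members were described, the genes of the red cell lists could be named if measured, the 10 genes most like the members were named by Pearson's r (with a standard deviation of at least 0.30, which is 0.5 times that of the mean profile), and of the other lists up to 3 bright genes and any gene past the threshold, and a few more after their values were seen. Alternatives changed the background correction, scaling, filter, probe rule, mice left out and blocks. Same-numbered mice did not deviate together, so numbers were not taken as pairs. Some listed genes are not reported here.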

Additional observations from a re-analysis of the deposited data

How the results depend on the processing

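The log2 fold changes of Hba-a1, Hba-a2, Alas2 and Slc4a1 stayed below 0 and short of the threshold under all alternatives run, with ranges of -1.41 to -0.77, -1.05 to -0.72, -1.64 to -0.69 and -1.33 to -0.06 and limma adjusted p of 0.113 to 0.506, 0.115 to 0.447, 0.155 to 0.626 and 0.194 to 0.909. The replicate block left their values as they were (limma adjusted p = 0.211, 0.262, 0.256 and 0.656) and gave 5 genes past the threshold in place of 53. No mouse correlated with its own number above 0.03 (-0.06, -0.27 and 0.03). The count was 8 with no filter on dim probes, 35 with probes above background on all 6 arrays, and 1 to 198 when a mouse was left out; the highest count was without aged mouse 1 and the lowest without aged mouse 3. 

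Median scaling moved the median of all genes from -0.06 to -0.21, and the list medians to -0.42 for heme synthesis, -0.0877 for red cell membrane, -0.29 for red cell metabolism, -0.53 for erythroid transcription and 0.00915 for heme and iron salvage. Normexp correction gave -0.25 for red cell metabolism and 0.73 for neutrophils. With no filter, red cell metabolism was at -0.0315, erythroid transcription at 0.14, neutrophils at 0.32 and all genes at 0.03. Neutrophils were at 0.0515 with probes above background on all arrays and with every probe on its own, which put red cell metabolism at -0.21. With the slide row as a block, heme synthesis was at -0.38, red cell membrane -0.17, heme and iron salvage 0.0361, platelets -0.43, neutrophils 2.01 and muscle fibre -0.42. Leaving out a mouse gave -0.192 to -0.0641 for red cell metabolism and 0.0280 to 0.229 for heme and iron salvage. The causes were not tested. The dim probe of Slc4a1 and the red cell markers not above background limit what these arrays show of the red cell membrane.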

Other observations

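Heme that leaves red cells is taken up and broken down mainly by macrophages. Of 15 listed genes for the salvage of heme and iron, 13 were tested, 3 lower and 10 higher in mean in the aged, and none passed the threshold. The aged mean was lower in 56.9% of all genes. The iron exporter Slc40a1 (ferroportin) was 3.41, 4.32 and 3.85 in the young and 3.13, 1.83 and 1.75 in the aged (log2 fold change -1.62, limma adjusted p = 0.186), without overlap. The heme transporter Slc48a1 was at -1.54 (limma adjusted p = 0.351), with aged mouse 1 at 1.99 and the other aged mice at 0.20 and -0.86. Hmox1, which opens the heme ring, was 1.22, 0.0041 and 0.077 in the young and 1.29, 0.83 and 2.77 in the aged. Its groups overlapped (1.20, limma adjusted p = 0.385, with 0.53 on its second probe). Blvrb, a biliverdin reductase also made by red cells, was -1.37, -2.37 and -3.57 in the young and -1.63, 0.83 and 0.55 in the aged (2.35, limma adjusted p = 0.268). Its groups overlapped, and its probe was well above background on only 2 young arrays. Slc11a1, an iron transporter of macrophages, was higher on all aged arrays (0.51, limma adjusted p = 0.242). Of the 13 tested genes, 1 was lower without overlap, against 13.9% of all genes, and 1 was higher without overlap, against 7.92%. The hemoglobin scavenger receptor Cd163 was above background on 0 arrays. Ferritin chains Fth1 (-0.13) and Ftl1 (0.08) had overlapping groups, and the second probe of Ftl1 gave 0.27.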
